A study of Mus musculus with 38 samples.

Results

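The genes described here are 10 immediate early genes of the mouse: Fos, Fosb, Fosl2, Jun, Junb, Jund, Egr1, Ier2, Ier3 and Atf3. They were chosen by name and make up 10 of the 15118 genes tested. Each gene was read from the array probe annotated to it that had the highest mean. Only Fosl2 and Junb had any further probe. All 10 passed the filter on dim probes, which asked for a signal above background on at least 2 of the 38 arrays.

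Immediate early genes are transcribed soon after a cell receives a hormone, growth factor or stress signal, without the need for new protein. Fos and Jun family proteins pair through leucine zippers to form AP-1, which binds DNA and turns on or restrains later genes, while Egr1 is a zinc finger factor that binds GC-rich sites. Their RNA is short-lived, and tissue handling alone can also raise it.

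All RNA came from whole testis, pooled from 2 animals per array and measured on 38 single-colour Illumina bead arrays. LuRKO mice lack a working luteinizing hormone receptor in every cell, and their wild-type littermates served as controls. In the age series, untreated LuRKO and wild-type testes were taken at days 3, 8, 13, 19 and 27, with birth as day 1. In 1 rescue series, LuRKO mice received a single intraperitoneal injection of 2.5 mg testosterone propionate at day 19 and were sampled 2, 4, 8, 12, 24 and 48 h later. In the other, LuRKO mice of the same age received vehicle, 250 ng, 2.5 µg or 25 µg and were sampled at 24 h. Of the 20 groups, 18 had 2 arrays, and LuRKO at day 27 and 2.5 mg at 24 h had 1 each. P-values therefore measure the spread between pools, and those for single arrays borrow the spread of the other groups. Untreated means LuRKO at day 19 without injection, and low dose means the 250 ng and 2.5 µg groups together, 4 arrays.

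The Sertoli cell factor Sox9 lay between 11.63 and 14.20 on the log2 intensity scale on all 38 arrays. Rhox5, an androgen-responsive Sertoli cell gene, checked the treatment. It was 7.81 and 7.98 in untreated testes, 8.33 and 8.47 at 2 h after 2.5 mg, 8.97 and 9.32 at 4 h, 10.02 and 10.15 at 8 h and 11.92 at 24 h. At the low doses it lay between 8.14 and 8.48. Vehicle replicate A went against its label, with Rhox5 at 10.92 where vehicle replicate B had 8.15, and the Leydig cell gene Insl3 at 12.34 against 9.23. Its label also gives a later age than that of the other 24 h arrays. Wild-type day 3 replicate A and LuRKO day 13 replicate B also stood apart in marker genes. Calls for the 10 genes that were lost without these arrays are given with and without them. So are the calls told for other genes against vehicle at 2 to 24 h. Calls gained without these arrays are given for Jun, Atf3 and Ier2. Untreated testes were arrays of the age series and were not injected, and 14.1% of all genes were called between vehicle and untreated, none of the 10 among them. Without vehicle replicate A, 9.33% of all genes were called, and Jun was 0.61 higher with vehicle than in untreated testes (adjusted p = 0.0357). In comparisons with untreated, the series, the injection and testosterone cannot be told apart, nor can age at the later times. Testes taken 24 and 48 h after injection at day 19 were older than untreated day 19 testes. The part of age was not tested. Vehicle and low-dose arrays were injected, but all were taken at 24 h and belong to the dose series. At 2, 4, 8, 12 and 48 h, testosterone, the time since injection and the series therefore cannot be told apart in comparisons with them. At 24 h, testosterone and the series cannot be told apart in these comparisons either.

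The 250 bases before the start of 3 of the genes are shown because the genes differed in their response: Fosl2 was called higher from 2 to 8 h after testosterone against every control group, Fos on the single 24 h array against every control group, and Junb against untreated testes only. They are RefSeq promoters of GRCm38.p6, Fos at chr12:85473640-85473889 on the plus strand, Fosl2 at chr5:32136222-32136471 on the plus strand and Junb at chr8:84978749-84978998 on the minus strand. Capitals mark every match to the motifs named in the next paragraph.
Fos: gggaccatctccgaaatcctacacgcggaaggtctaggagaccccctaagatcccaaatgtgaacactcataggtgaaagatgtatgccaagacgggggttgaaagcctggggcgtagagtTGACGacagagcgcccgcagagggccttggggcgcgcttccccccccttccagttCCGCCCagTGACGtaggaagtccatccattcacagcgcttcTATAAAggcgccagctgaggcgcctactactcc
Fosl2: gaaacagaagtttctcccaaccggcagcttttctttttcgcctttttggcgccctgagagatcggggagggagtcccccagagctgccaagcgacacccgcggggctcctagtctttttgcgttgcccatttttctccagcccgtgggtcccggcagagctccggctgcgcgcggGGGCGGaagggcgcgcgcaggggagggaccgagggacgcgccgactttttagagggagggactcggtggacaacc
Junb: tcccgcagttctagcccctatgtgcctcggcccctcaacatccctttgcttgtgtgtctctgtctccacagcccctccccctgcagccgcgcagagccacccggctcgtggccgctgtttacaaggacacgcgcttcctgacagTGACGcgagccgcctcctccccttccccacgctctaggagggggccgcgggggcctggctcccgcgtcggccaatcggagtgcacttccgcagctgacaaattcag

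Of the 10 genes, 8 had a promoter in the table, and Egr1 and Ier2 are named only. Motifs were searched on both strands. Fos held the short core of the cyclic AMP response element, TGACG, from -129 to -125 and from -66 to -62 counted from the start, a GC box, GGGCGG on the opposite strand, from -74 to -69, and a TATA box, TATAAA, from -33 to -28. Fosl2 held a GC box from -75 to -70 and no other match. Junb held TGACG from -106 to -102. TGACG stood in 17.8% of all 32851 promoters in the same window, GGGCGG in 32.7% and TATAAA in 12.4%. None of the 8 held the full element TGACGTCA (1.55% of all promoters), the AP-1 site TGANTCA (6.75%), the EGR site GCGTGGGCG (0.536%), the CArG box bound by serum response factor (1.47%) or a full androgen response element (0.00913%). The full element TGACGTCA overlaps the short core by its letters. No match says only that these letters are not in this window.

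Fosl2, which encodes the Fos family protein Fra-2, was called higher at 2, 4 and 8 h after 2.5 mg testosterone against each of the control groups. Fos was the other member called higher against all of them, on the single 24 h array. The log2 intensity of Fosl2 was 8.46 and 8.63 on the untreated arrays and 8.54 and 8.55 on the vehicle arrays. It was 9.33 and 9.41 at 2 h, 9.69 and 9.88 at 4 h and 9.46 and 9.62 at 8 h. Every array from 2 to 8 h was above every untreated, vehicle and lower-dose array. The level was then 9.13 and 9.25 at 12 h, 9.15 at 24 h and 8.96 and 8.97 at 48 h.

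At 4 h Fosl2 was 1.24 ± 0.15 log2 units (SE) above untreated, a 2.36-fold difference (95% interval 0.92 to 1.55 in log2, limma adjusted p = 5.27e-07). Against vehicle the difference was again 1.24 (adjusted p = 1.89e-05), and against low dose it was 0.95 ± 0.13 (adjusted p = 5.73e-05). At 2 h it was 0.82 against untreated (adjusted p = 0.000249), 0.82 against vehicle (adjusted p = 0.00517) and 0.54 against low dose (adjusted p = 0.0325). At 8 h the differences were 0.99, 0.99 and 0.70, all called at an adjusted p under 0.05. Against vehicle replicate B alone, the 2 h difference kept its size, 0.82, with an adjusted p of 0.0515, while 4 h stood at 1.24 (adjusted p = 0.000567) and 8 h at 0.99 (adjusted p = 0.00707). Leaving out replicate A of the 2 h group gave 0.78 against vehicle (adjusted p = 0.0687).

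The Fosl2 call at 2 h against low dose was lost without either 2 h array (0.50 and 0.58, adjusted p = 0.236 and 0.144), without replicate A of the 2.5 µg group (0.46, adjusted p = 0.107) or without replicate B of the 250 ng group (0.49, adjusted p = 0.11). The 8 h call against low dose was lost without replicate B of the 8 h group (0.63, adjusted p = 0.0888). The Fosl2 calls at 4 h held whichever array was left out.

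From 12 h on the Fosl2 calls depended on the control group, while the differences from untreated and from vehicle were alike in size. Against untreated Fosl2 was higher by 0.64 at 12 h, 0.60 at 24 h and 0.41 at 48 h, all called. The 12 h call was lost without replicate A of that group (0.58, adjusted p = 0.0509), and the 24 h call without untreated replicate A (0.69, adjusted p = 0.0509) or B (0.52, adjusted p = 0.158). The 48 h call was lost without any 1 of the 4 arrays (0.33 to 0.50). Against vehicle it was called at 12 h (0.64, adjusted p = 0.0265) and not at 24 h (0.60, adjusted p = 0.0614) or 48 h (0.42, adjusted p = 0.0536). The 12 h call against vehicle was lost without vehicle replicate A (0.64, adjusted p = 0.103) or B (0.65, adjusted p = 0.117), or without replicate A (0.59, adjusted p = 0.274) or B (0.70, adjusted p = 0.0674) of the 12 h group. Against low dose the values were 0.35 at 12 h, 0.32 at 24 h and 0.13 at 48 h, none called. Steps between neighbouring times were not called for Fosl2. The lower doses gave 8.86 and 9.03 at 250 ng, 8.58 and 8.87 at 2.5 µg and 8.84 and 9.03 at 25 µg. All 6 lay above both vehicle arrays, yet no dose was called: 25 µg was 0.39 ± 0.15 above vehicle (95% interval 0.07 to 0.70, adjusted p = 0.28).

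The rise of Fosl2 rests on 1 probe. The other 2 Fosl2 probes were above background on 2 and 0 of 38 arrays, so they hold no usable level. With the mean of its kept probes the 2 h difference was 0.36 against vehicle (adjusted p = 0.0724), the 4 h difference 0.54 (adjusted p = 0.00215) and the 8 h difference 0.41 (adjusted p = 0.0266).

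Markers of other cell types were read beside the 4 h result for Fosl2. Of all genes, 27.4% were called at 4 h against untreated, 9.86% against vehicle and 12.2% against low dose. At 4 h, 2 of 3 erythroid genes were called higher against vehicle and against low dose and 1 of 3 against untreated, and their summed level was 13.32 and 13.39 against 12.51 and 12.55 in vehicle and 12.64 to 12.97 at low dose. It was 12.56 and 13.66 at 2 h, and 12.46 and 13.73 at 25 µg. Of 7 endothelial markers 2 were called higher at 4 h against each control group, with sums of 11.31 and 11.33 against 11.08 and 11.10 in vehicle. Against vehicle at 4 h, 1 of 6 Leydig cell, 1 of 9 macrophage and 1 of 5 peritubular markers were lower and none was higher. No marker was called there by limma among 7 Sertoli cell, 7 neutrophil and mast cell, 7 spermatogonial, 5 meiotic, 5 spermatid and 3 epididymal markers and 8 androgen-responsive Sertoli cell genes. At an unadjusted p under 0.05 these lists gave 0, 0, 1, 2, 0, 0 and 3. Of all 15118 genes, 3692 had such a p there. Without vehicle replicate A, none of the erythroid, endothelial, Leydig cell, macrophage or peritubular genes was called at 4 h against vehicle by limma (3, 2, 1, 1 and 0 at an unadjusted p under 0.05), and 1 androgen-responsive gene was higher. The part of these cells in the Fosl2 result was not tested. In whole testis, more cells of a type and more RNA per cell cannot be told apart.

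**Figure D1:**
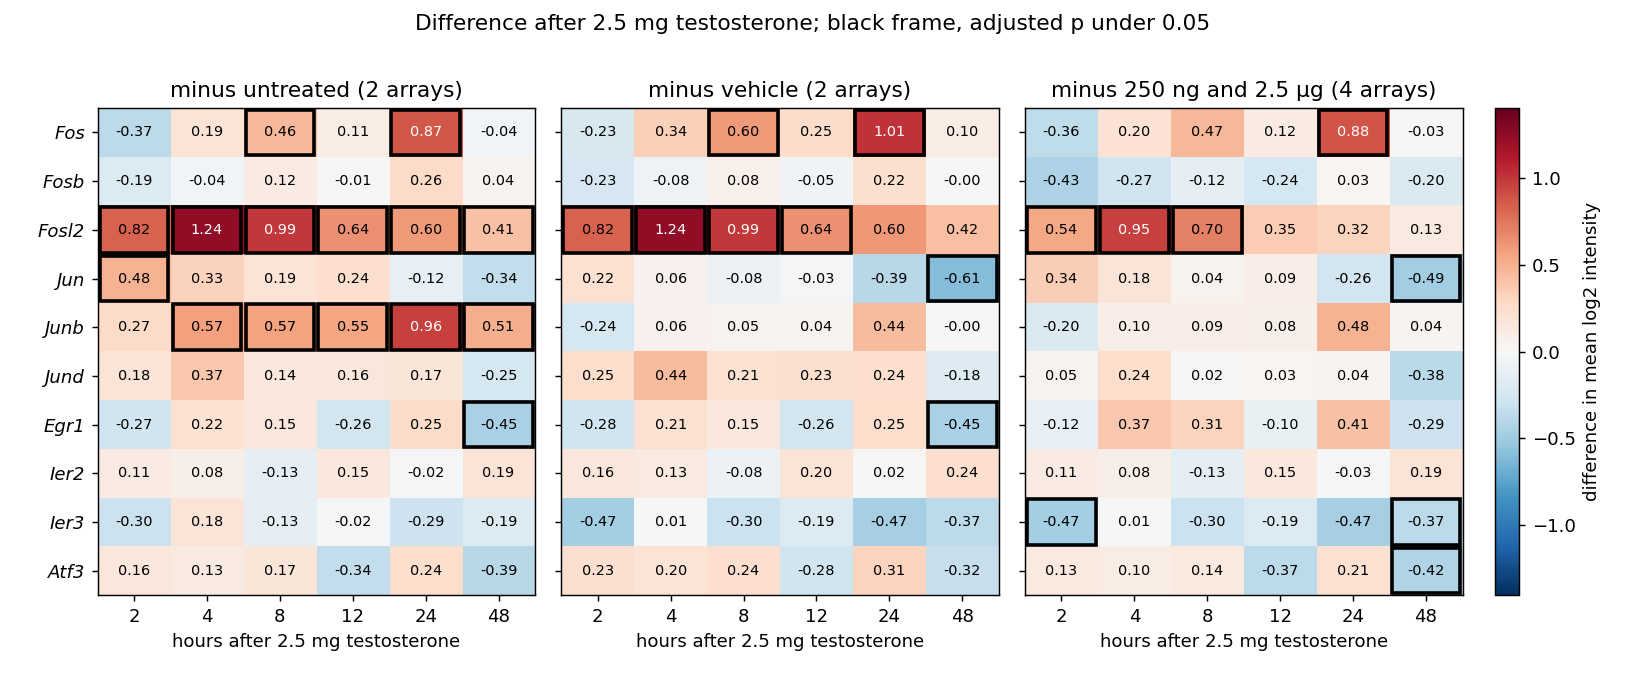
Differences in mean log2 intensity for the 10 genes at each time after 2.5 mg testosterone, minus untreated, vehicle and low-dose arrays; black frames mark limma adjusted p under 0.05. Fosl2 is framed at 2, 4 and 8 h in all panels, with its highest values at 4 h, and the Junb frames stand in the untreated panel only.

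Fos, the founding partner of AP-1, was not called at 2 or 4 h. It was 8.17 and 8.21 in untreated testes, 7.85 and 8.24 with vehicle, and 7.70 and 7.94 at 2 h. The 2 h value was 0.37 ± 0.17 below untreated, and was not called (adjusted p = 0.112). Fos was 8.30 and 8.46 at 4 h, 8.56 and 8.74 at 8 h, 8.06 and 8.53 at 12 h, 9.06 on the single 24 h array and 8.11 and 8.19 at 48 h. The 8 h arrays lay above both untreated arrays and both vehicle arrays, and the 12 h arrays overlapped with vehicle.

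At 8 h Fos was 0.46 above untreated (adjusted p = 0.0483) and 0.60 above vehicle (adjusted p = 0.0389), and 0.47 above low dose, which was not called. The call at 8 h was lost when either 8 h array was left out (0.37 and 0.55 against untreated, 0.51 and 0.69 against vehicle) and without vehicle replicate A (0.41, adjusted p = 0.361). The call against untreated was also lost without either untreated array (0.48 and 0.43). The 24 h array was 0.87 ± 0.20 above untreated (adjusted p = 0.00515), 1.01 above vehicle (adjusted p = 0.00469) and 0.88 above low dose (adjusted p = 0.00383). It was 0.82 above vehicle without vehicle replicate A (adjusted p = 0.0448). It was also 0.76 above the 12 h arrays (adjusted p = 0.0361), and the 48 h arrays were 0.91 below it (adjusted p = 0.003). The 24 h result rests on 1 array, which was also the highest for Junb among all 38 arrays. That array had summed macrophage markers of 11.89, against 11.54 and 12.05 with vehicle and 11.41 to 11.43 at low dose, where 4 of 9 were called higher. Its summed neutrophil and mast cell markers were 9.83, against 9.41 and 9.47 with vehicle and 9.41 to 9.74 at low dose. Their part in the Fos and Junb values was not tested. At 24 h after lower doses, Fos was 8.31 and 8.53 at 250 ng, 8.09 and 7.78 at 2.5 µg and 8.13 and 8.25 at 25 µg.

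Fosb, a further Fos family gene, was dim, above background on 28 of 38 arrays, and not called at any time after 2.5 mg against untreated, vehicle or low dose. It was not above background on either 2 h array, at 6.31 and 6.53. Fosb lay between 6.31 and 6.94 on all rescue arrays.

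Junb, a Jun family gene with weaker transactivation than Jun, differed from untreated testes but not from injected controls. Untreated arrays held 6.78 and 7.16, and vehicle arrays 7.43 and 7.55. The 4 h arrays held 7.46 and 7.63, the 8 h arrays 7.47 and 7.61 and the 24 h array 7.93. Against untreated, Junb was higher by 0.57 at 4 h, 0.57 at 8 h, 0.55 at 12 h, 0.96 at 24 h and 0.51 at 48 h, all called. Against vehicle the same times gave 0.06, 0.05, 0.04, 0.44 and -0.00, none of them called, and against low dose 0.10, 0.09, 0.08, 0.48 and 0.04, none called either. Leaving out untreated replicate A, the lowest Junb value of all 38 arrays, took the 4 h difference from untreated to 0.38 (adjusted p = 0.243). Without it the Junb calls at 8, 12, 24 and 48 h were lost too (0.37, 0.36, 0.77 and 0.32). The 4 h call was also lost without replicate B of that group (0.48, adjusted p = 0.163), and those at 8, 12 and 48 h without either array of their own group (0.42 to 0.66). Its second probe was above background on 8 of 38 arrays.

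Jun, the most strongly activating Jun family member, was 7.57 and 7.70 in untreated testes and 7.94 and 8.30 at 2 h. The 2 h difference from untreated was 0.48 ± 0.18 (adjusted p = 0.048), and without replicate B of the 2 h group it was 0.30 (adjusted p = 0.398). Without untreated replicate A or B it was 0.42 (adjusted p = 0.212) or 0.55 (adjusted p = 0.0827). Against vehicle, whose arrays held 7.55 and 8.24, it was 0.22 and against low dose 0.34, neither called. At 48 h Jun was 7.08 and 7.50, which was 0.61 below vehicle (adjusted p = 0.0136) and 0.49 below low dose (adjusted p = 0.0192). Without vehicle replicate A the 48 h difference from vehicle was -0.95 (adjusted p = 0.000728). Without vehicle replicate B it was -0.26 (adjusted p = 0.432), and without replicate A of the 48 h group it was -0.40 against vehicle and -0.28 against low dose, neither called. Without replicate A of the 2.5 µg group the low-dose difference was -0.43 (adjusted p = 0.0684).

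Jund, the Jun family member that most cells express without stimulus, was not called at any time after 2.5 mg in these comparisons. It was 8.09 and 8.15 at 4 h against 7.63 and 7.73 with vehicle, a difference of 0.44, and 7.43 and 7.56 at 48 h.

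Egr1, an early target of kinase signalling in many cells, was 11.57 and 11.63 in untreated testes and 11.18 and 11.47 at 2 h, and no early difference was called. It was 11.70 and 11.93 at 4 h, 11.85 at 24 h and 11.06 and 11.24 at 48 h. The 48 h group had the lowest Egr1 mean of the rescue series, 0.45 below untreated (adjusted p = 0.0364) and 0.45 below vehicle (adjusted p = 0.0488), and 0.70 below the 24 h array (adjusted p = 0.0181). Against low dose the 48 h difference was -0.29, which was not called. Leaving out any 1 of the 48 h, untreated or vehicle arrays lost the call, with differences between -0.36 and -0.55.

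Ier3, a stress-response gene linked to cell survival, was 7.76 and 8.13 at 2 h and 8.31 to 8.53 on the 4 low-dose arrays. It was 0.47 lower at 2 h than at low dose (adjusted p = 0.0316). The call was lost without replicate A of the 2 h group (-0.29), replicate A of the 2.5 µg group (-0.44) or replicate B of the 250 ng group (-0.44). Against vehicle it was also 0.47 lower at 2 h and against untreated 0.30 lower, neither called. At 48 h Ier3 was 0.37 below low dose (adjusted p = 0.0214), a call lost without either 48 h array (-0.40 and -0.34), without replicate A of the 2.5 µg group or without replicate B of the 250 ng group (-0.33 each).

 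Atf3, a bZIP factor induced by stress that often represses, was above background on 22 of 38 arrays. At 48 h, with 6.06 and 6.26 and no array above background, it was called lower than low dose (adjusted p = 0.0341), where 2 of the 4 arrays were above background. The low-dose mean, 6.58, was itself under the background threshold, so no fold is given. Of the 6 arrays behind that Atf3 call, leaving out any other than replicate A of the 250 ng group lost it. Against vehicle at 48 h, Atf3 was not called with all arrays. Without vehicle replicate A it was called lower there (-0.65). It was also at least 1.12-fold lower at 48 h than on the 24 h array (adjusted p = 0.0355). Ier2, a nuclear protein of the early growth response, was above background on no rescue array, so no difference can be given after testosterone.

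Counted over the 10 genes against untreated, 2 were higher at 2 h (21% of all genes were called in either direction), 2 at 4 h (27.4%), 3 at 8 h (20.9%), 2 at 12 h (16.5%) and 3 at 24 h (9.87%). At 48 h, 2 were higher and 1 lower (32.1%). Against vehicle, 1 was higher at 2 h (1.79%), 1 at 4 h (9.86%), 2 at 8 h (3.25%), 1 at 12 h (1.92%) and 1 at 24 h (4.83%), and 2 were lower at 48 h (21.2%). Against low dose, 1 was higher and 1 lower at 2 h (2.06%), 1 was higher at 4 h (12.2%) and 1 at 8 h (3.19%). None was called at 12 h (1.87%). At an unadjusted p under 0.05 limma gave 2 of the 10 there, and 2238 of all 15118 genes. Then 1 was higher at 24 h (5.81%) and 3 were lower at 48 h (24.5%). The median difference of the 10 genes at 4 h was 0.20 against untreated and 0.16 against vehicle, and that of all genes was 0.06 and 0.01. All times share the same control arrays within a comparison, so their counts are not independent of each other.

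Between neighbouring times, none of the 10 was called from 2 to 4 h (0.0331% of all genes), from 4 to 8 h (0.0529%) or from 8 to 12 h (1.39%). The counts at an unadjusted p under 0.05 in limma were 4, 1 and 5. Of all 15118 genes, 1444, 1078 and 2339 were under that p in these steps. Fos was higher at 24 than at 12 h (2.77%), and Fos, Egr1 and Atf3 were lower at 48 than at 24 h (15.2%). None was called for 250 ng (0.0595%), 2.5 µg (0.0529%) or 25 µg (0.456%) against vehicle. At an unadjusted p under 0.05 limma gave 2, 0 and 1 of the 10 at these doses. Of all genes it gave 1478, 1466 and 1893. For vehicle against untreated the unadjusted count was 1 of the 10, and 4126 of all genes.

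**Figure D2:**
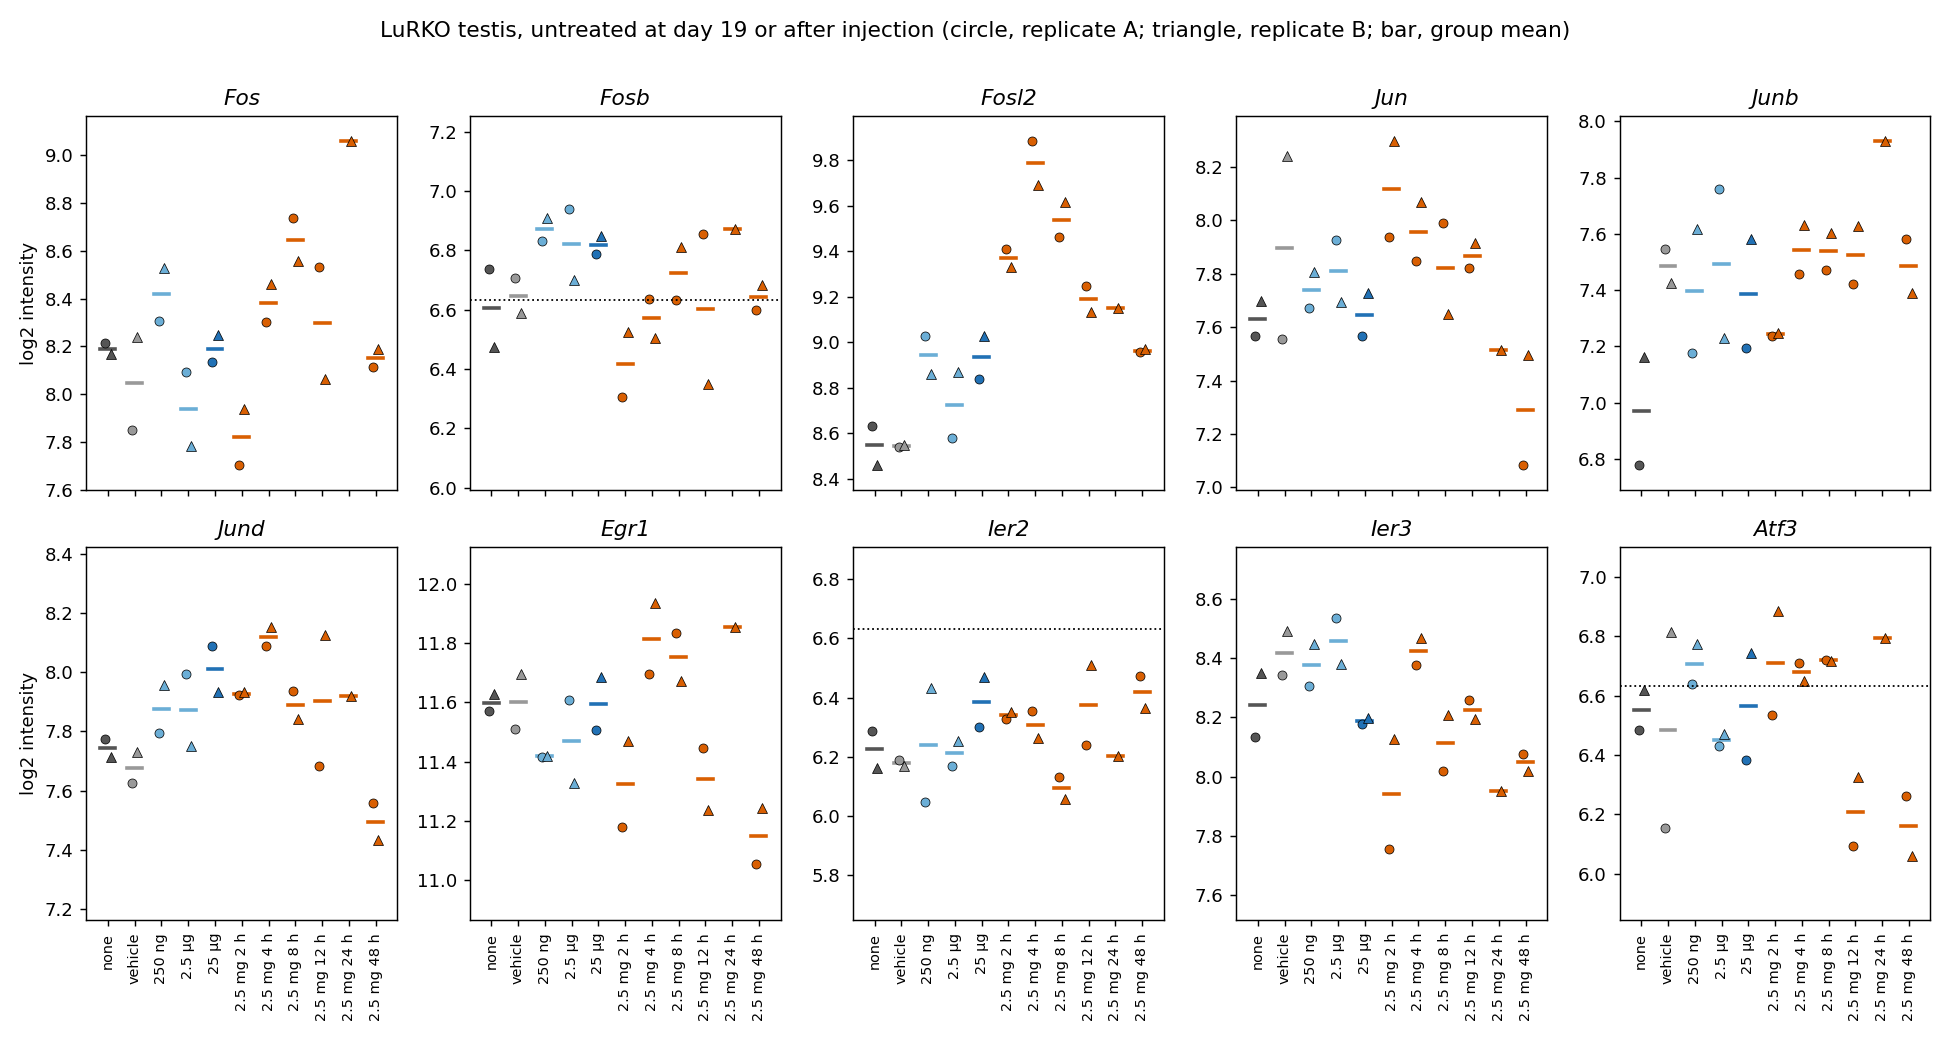
Log2 intensity of the 10 genes on every array of the rescue series and on untreated day 19 LuRKO arrays, with bars for group means and a dotted line at the background threshold of 6.63. Fosl2 climbs to 9.88 and 9.69 at 4 h and then falls back, Fos is highest on the single 24 h array, and Ier2 stays under the dotted line.

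The other immediate early genes of a list of 53, of which 46 were tested, moved in both directions. Against vehicle 7 were higher and 1 lower at 4 h (9.86% of all genes called), 6 and 0 at 8 h (3.25%), and 6 and 1 at 24 h (4.83%), with 1 and 0 at 2 h (1.79%). Without vehicle replicate A the counts were 2 and 1 at 4 h (2.49%), 2 and 0 at 8 h (1.2%), 2 and 2 at 24 h (2.86%), and 0 and 1 at 2 h (0.357%). The list median at 4 h was 0.14, and that of all genes 0.01. Against low dose, 10 were higher and 4 lower at 4 h (12.2%), and 8 and 1 at 8 h (3.19%). The list was chosen with earlier results of these data known, and the counts are given without a test of the list.

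Gadd45g, a stress-induced growth arrest gene, was 11.02 and 11.27 at 4 h, 10.12 and 10.60 with vehicle and 9.90 to 10.21 at low dose. Its difference was 0.78 against vehicle (adjusted p = 0.00275) and 1.12 against low dose (adjusted p = 1.17e-05), and the groups did not overlap. The Gadd45g difference was 1.02 without vehicle replicate A (adjusted p = 0.00248). Nfkbiz, a nuclear regulator of NF-kappaB targets, was the list member called at 2 h against vehicle, 7.86 and 8.03 against 7.25 and 7.57. Its difference was 0.54 at 2 h (adjusted p = 0.0419), 0.50 at 4 h, 0.66 at 8 h and 0.91 at 24 h, all called. The 2 h call of Nfkbiz was lost without vehicle replicate A (0.70, adjusted p = 0.0541), and it was called at 4 h (0.66), 8 h (0.82) and 24 h (1.07). Against untreated it was 0.08, 0.04, 0.21 and 0.46 above at these times, none called. Dusp1, a phosphatase that switches off MAP kinases, was 10.35 and 10.54 at 4 h, 0.47 above vehicle (adjusted p = 0.0259) and 0.72 above low dose (adjusted p = 0.000274). With vehicle replicate B alone as the control, Dusp1 was 0.48 higher (adjusted p = 0.12).

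Ccn2, a matrix-associated growth factor gene, rose and then fell. It was 13.62 and 13.84 at 4 h, 13.03 and 13.16 with vehicle and 12.32 and 12.52 at 12 h, so that it was 0.63 above vehicle at 4 h (adjusted p = 0.00413) and 0.68 below it at 12 h (adjusted p = 0.00597). The Ccn2 values were 0.57 (adjusted p = 0.0675) and -0.74 (adjusted p = 0.0233) without vehicle replicate A. Ccn1, its relative, was 0.76 above low dose at 8 h (adjusted p = 0.00031). Trib1, a pseudokinase gene, was 6.94 and 7.21 at 4 h and not above background with vehicle (adjusted p = 0.0124, and 0.0563 without vehicle replicate A). Csrnp1, a nuclear factor named for cysteine- and serine-rich stretches, went the other way, with 8.62 and 9.43 at 4 h against 9.64 and 10.21 with vehicle (-0.90, adjusted p = 0.0189) and 9.81 to 10.49 at low dose. The Csrnp1 difference was -1.19 without vehicle replicate A (adjusted p = 0.0257). Arc was 0.72 below low dose at 4 h (adjusted p = 0.0233).

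The largest differences from untreated on this list were Ifrd1 at 8 h (-1.38) and Id2 at 2 h (-1.29), both called, and against vehicle these were -0.38 and -0.50, not called. Ppp1r15a, a stress phosphatase subunit, was 0.95 above untreated at 4 h (adjusted p = 4.94e-05) and 0.47 above vehicle, which was not called. At 24 h the single array held Phlda1 0.93, Nfkbiz 0.91, Gadd45g 0.89 and Rhob 0.72 above vehicle, all called. Without vehicle replicate A, Nfkbiz (1.07) and Gadd45g (1.12) were still called, and Phlda1 (0.88, adjusted p = 0.0517) and Rhob (0.64, adjusted p = 0.0707) were not. The marker levels of that array, given with Fos, stand beside these values too, and their part was not tested.

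**Figure D3:**
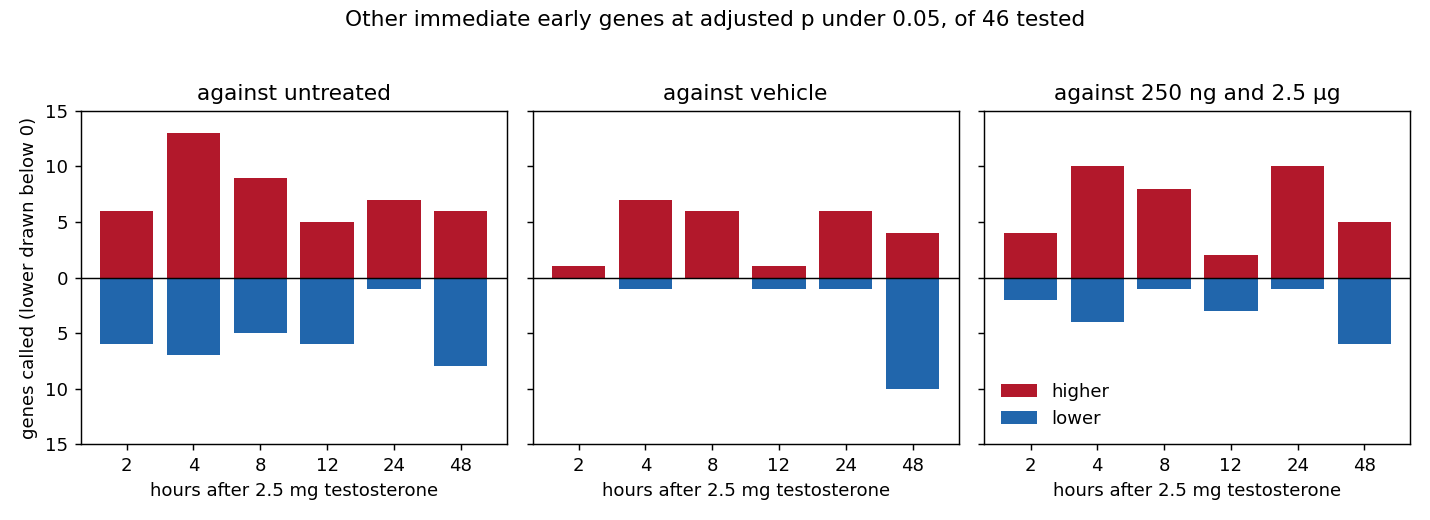
Number of the 46 tested other immediate early genes called higher (red, above 0) or lower (blue, below 0) at each time after 2.5 mg testosterone, against untreated, vehicle and low dose. Against vehicle and low dose the higher counts peak at 4 to 8 h and again at 24 h. Of all genes, 9.86%, 3.25% and 4.83% were called at 4, 8 and 24 h against vehicle. Against low dose these shares were 12.2%, 3.19% and 5.81%. At 48 h against vehicle 10 of the 46 were lower, beside 10.5% of all genes lower and 21.2% called.

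Among 12 tested genes for other AP-1 and related bZIP factors, 3 were higher than vehicle at 4 h and none lower (9.86% of all genes called). They were Mafg (0.52), a small Maf protein that pairs with other bZIP factors, Atf7 (0.50) and Atf2 (0.35), which encode partners of Jun, and none of the 12 was called against low dose at 4 h, where 5 had an unadjusted p under 0.05 in limma. Of all 15118 genes, 3982 had such a p against low dose at 4 h. Without vehicle replicate A, none of the 12 was called against vehicle at 4 h (4 at an unadjusted p under 0.05). Mafg was then at 0.50, Atf7 at 0.43 and Atf2 at 0.40. Mafk was above background on both untreated arrays, at 7.72 and 7.90, and lower at 12 h (adjusted p = 1.18e-07), where it was not above background, nor was it with vehicle. Among 12 kinases and serum response factors, Rps6ka3, which encodes a ribosomal S6 kinase downstream of ERK, was 0.43 above vehicle at 4 h (adjusted p = 0.0318), the 1 call among the 12, and 0.41 without vehicle replicate A (adjusted p = 0.164). Map2k1, the gene of the kinase MEK1, was 2.06 below untreated at 2 h (adjusted p = 8.47e-09) and 0.36 below vehicle, which was not called.

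Among 10 heat shock and stress genes, 1 was higher and 2 were lower than vehicle at 4 h (9.86% of all genes called), and 0 and 1 without vehicle replicate A (2.49%). Hspa5, the chaperone of the endoplasmic reticulum, was 8.70 and 8.82 at 8 h, 9.31 and 9.43 with vehicle and 10.83 and 11.15 in untreated testes, so that the difference was -0.61 against vehicle (adjusted p = 0.0112) and -2.23 against untreated. Against vehicle replicate B alone, Hspa5 was at -0.55 (adjusted p = 0.113). Hspb1 was 1.13 above untreated at 8 h and 0.34 above vehicle, the latter not called. Of 8 tested genes that AP-1 is known to bind or regulate in other cells, none was called against vehicle at 2, 4 or 12 h by limma, and 3, 1 and 0 of the 8 had an unadjusted p under 0.05. Of all 15118 genes, 2494, 3692 and 2263 had such a p at 2, 4 and 12 h. At 8 h 1 of the 8 was lower (3.25% of all genes called), and at 24 h 1 was higher (4.83%). Timp1, a metalloproteinase inhibitor, was 8.99 on the 24 h array, 0.80 above vehicle (adjusted p = 0.0194, and 0.0496 without vehicle replicate A) and 1.03 above low dose. Plau, the urokinase gene, was 0.52 below vehicle at 8 h (adjusted p = 0.0248, and 0.0664 without vehicle replicate A). Vim was 1.28 above untreated at 4 h and 0.28 above vehicle, the latter not called, and Cd44 was 0.47 above low dose at 4 h (adjusted p = 0.0314).

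In the age series the highest group means stood at day 3 or day 8, apart from Junb. Fosl2 went from 9.99 and 10.36 at day 3 to 9.25 and 9.27 at day 13, 8.06 and 8.68 at day 19 and 7.40 and 7.64 at day 27 in wild-type testes. Day 27 minus day 3 was -2.66 ± 0.15, a 6.30-fold difference (adjusted p = 1.23e-15). Jun was 8.89 and 8.97 at day 3 and 6.79 and 6.94 at day 27, a difference of -2.06 (adjusted p = 8.46e-12), and Egr1 was 13.01 and 13.47 and then 11.23 and 11.29, a difference of -1.98 (adjusted p = 4.63e-12). In each of these genes the day 3 and day 27 arrays did not overlap.

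Ier3 fell by 1.30 (adjusted p = 6.09e-10), Jund by 1.24 (adjusted p = 2.12e-07) and Fos by 0.89 (adjusted p = 1.73e-05) between days 3 and 27. Atf3 was not above background at day 27 and was at least 1.18-fold lower (adjusted p = 0.00012). Fosb was 0.41 lower (adjusted p = 0.0159), and without wild-type day 3 replicate A, which stood apart, the difference was -0.35 (adjusted p = 0.0891). Without replicate B of day 27 it was -0.26 (adjusted p = 0.205). Ier2 was not above background at day 27 and was not called with all arrays (at least 1.02-fold lower). Without wild-type day 3 replicate A, Ier2 was called lower, by at least 1.13-fold. With all arrays, 8 of the 10 genes were lower at day 27 in wild type. There 73.4% of all genes were called and the median of all genes was -0.19, against -1.07 for the 10. In LuRKO, with 1 array at day 27, 9 of 10 were lower (59.6%), with medians of -0.96 for the 10 and -0.07 for all genes. Fosl2 fell by 2.31, Jund by 1.74, Jun by 1.63, Egr1 by 1.58, Ier3 by 1.01 and Fos by 0.91 there. Fosb, Ier2 and Atf3 were not above background on the LuRKO day 27 array and were at least 1.37-fold, 1.13-fold and 1.25-fold lower there. Of these calls, Fosb was lost without either day 3 array (at least 1.39-fold, adjusted p = 0.0592, and at least 1.36-fold, adjusted p = 0.0769) and Atf3 without day 3 replicate A (at least 1.15-fold, adjusted p = 0.173). The change from day 3 to day 27 differed between genotypes for none of the 10 genes (47.4% of all genes, limma interaction; 0 at an unadjusted p under 0.05).

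From day 13 to day 19, 8 of the 10 were lower in wild type (57%) and 5 of 10 in LuRKO (44.4%). In wild type Jun dropped by 1.08, Jund by 1.07, Fosl2 by 0.88, Egr1 by 0.85, Ier3 by 0.77 and Fos by 0.60 over this step. The wild-type count includes Ier2, which was above background in neither group, and Atf3, which was at least 1.34-fold lower. The Ier2 call was lost whichever of the 4 arrays was left out. In LuRKO the 5 were Fos, Fosl2, Jun, Jund and Egr1. Jun was lost without LuRKO day 13 replicate B, which stood apart (-0.53, adjusted p = 0.0548). Fos and Egr1 were lost without day 13 replicate A (-0.41 and -0.42), and Fos also without either day 19 array (-0.49 and -0.45). Jund then rose by 0.84 from day 19 to day 27 (adjusted p = 0.000193), though its day 27 arrays were apart, at 7.53 and 8.35. Without day 27 replicate A the Jund rise was 0.43 (adjusted p = 0.0415). Cell makeup moved with age: 5 of 5 meiotic germ cell markers were higher at day 27 than at day 3 in wild type, and 7 of 7 Sertoli cell markers were lower. The summed Sertoli markers were 15.09 and 15.22 at day 3 and 12.67 and 12.69 at day 27. Of the 46 other immediate early genes 34 were lower and 5 higher over the same span, with a median of -0.89. From day 3 to day 27 in wild type, 73.4% of all genes were called, with a median of -0.19. The part of cell makeup in these differences was not tested.

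**Figure D4:**
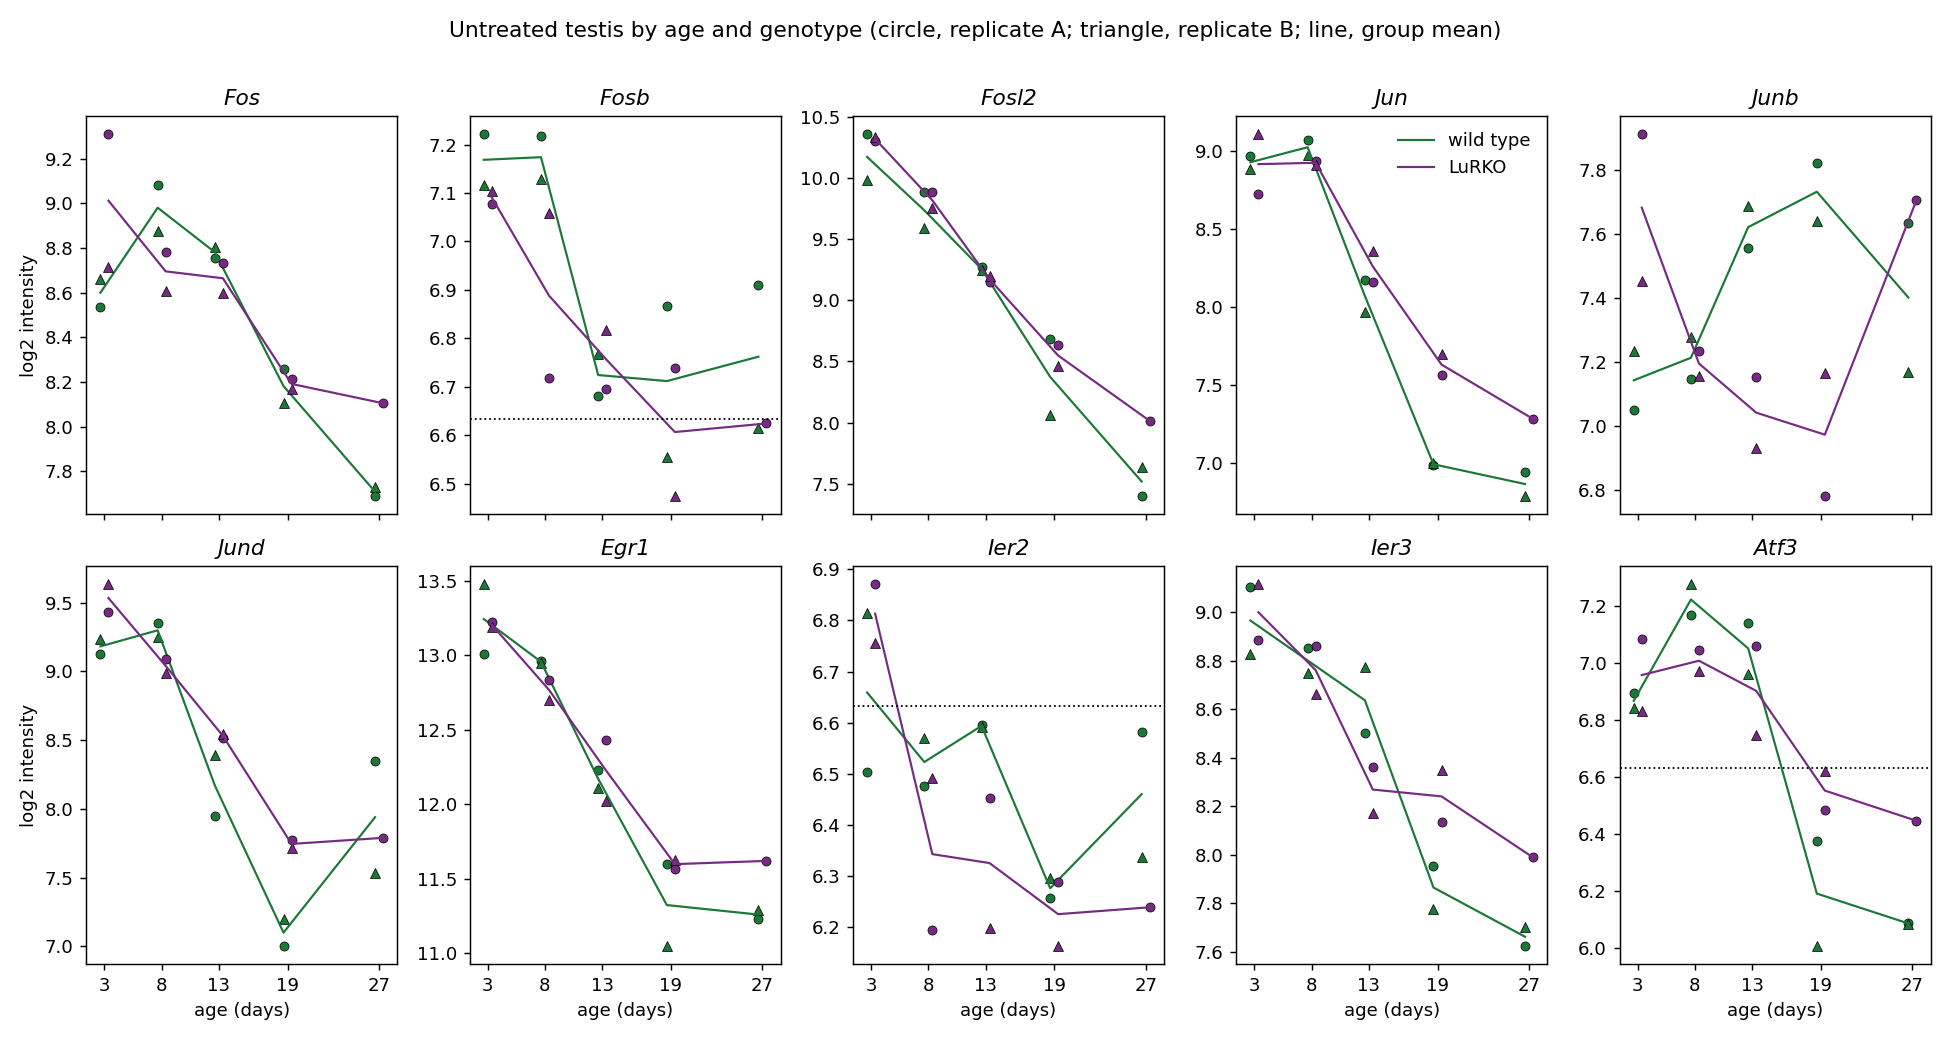
Log2 intensity of the 10 genes by age in wild-type (green) and LuRKO (purple) testes, with lines through group means and a dotted line at the background threshold of 6.63. Fosl2, Jun, Egr1 and Ier3 are lower at day 27 than at day 3 in both genotypes. Jund turns up in wild type at day 27. Junb is lower in LuRKO without overlap at days 13 and 19, and was called at day 19 only.

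Between genotypes, none of the 10 was called at day 3 (8.25%), day 8 (0.0463%) or day 13 (1.74%). The unadjusted counts were 2, 0 and 3 of 10. Of all 15118 genes, 3289, 1263 and 1878 had an unadjusted p under 0.05 in limma at these ages. At day 19, 3 were higher in LuRKO and 1 was lower (23.2%). Jun was 7.57 and 7.70 in LuRKO and 6.99 and 7.00 in wild type, higher by 0.64 ± 0.18 (adjusted p = 0.00915), and Jund was 7.72 and 7.78 against 7.00 and 7.20, higher by 0.64 (adjusted p = 0.00823). Ier3 was 8.13 and 8.35 against 7.78 and 7.95, higher by 0.38 (adjusted p = 0.0438). Junb was 6.78 and 7.16 against 7.64 and 7.82, lower by 0.76 ± 0.18 (adjusted p = 0.00357). None of these groups overlapped, and Junb was the only member called lower in LuRKO. At day 13 the Junb arrays did not overlap either, at 7.15 and 6.93 in LuRKO and 7.56 and 7.69 in wild type. That difference was not called, so with 2 arrays a group a lack of overlap also occurs without a call.

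These calls rest on 2 arrays a group. Without LuRKO day 19 replicate A, Junb was 0.57 lower (adjusted p = 0.079) and Jund 0.61 higher (adjusted p = 0.0537), and without wild-type day 19 replicate B, Jun was 0.64 higher (adjusted p = 0.056) and Ier3 0.29 higher (adjusted p = 0.28). Without LuRKO day 19 replicate B, Jun was 0.57 higher (adjusted p = 0.0676) and Ier3 0.27 higher (adjusted p = 0.272). Without wild-type day 19 replicate A, Jun was 0.63 higher (adjusted p = 0.0507), Jund 0.55 higher (adjusted p = 0.0867) and Ier3 0.46 higher (adjusted p = 0.0594).

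At day 19, when 23.2% of all genes were called, macrophage markers were lower in LuRKO for 8 of 9 genes. Their sums were 11.20 and 11.41 against 12.10 and 12.27. Sertoli markers were higher for 5 of 7, with sums of 13.99 and 13.99 against 13.29 and 13.41. Their part in these differences was not tested. The Junb difference at day 19 differed from that at day 3 by -1.30 (adjusted p = 0.000934; 17.2% of all genes) and from that at day 27 by -1.07 (adjusted p = 0.00508; 34.9%). It was not called different from day 8 (-0.74, adjusted p = 0.0732) or day 13 (-0.18, adjusted p = 0.743). Both Junb calls held without each array that could be left out. The call against day 27 also rests on the single LuRKO day 27 array, which could not be left out.

 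The Jund difference at day 19 differed from that at day 8 by 0.90 (adjusted p = 0.023; 8.15%) and from day 27 by 0.80 (adjusted p = 0.0255), and not from day 3 (0.29, adjusted p = 0.45) or day 13 (0.28, adjusted p = 0.549). Against day 27 the Jund value was 0.39 without wild-type day 27 replicate A (adjusted p = 0.236), and the call was also lost without LuRKO day 19 replicate A (0.77) or wild-type day 19 replicate A (0.70). Against day 8 it was lost without any 1 of 5 of the 8 arrays (0.81 to 0.95). The Ier3 difference at day 19 differed from that at day 13 by 0.74 (adjusted p = 0.023; 5.48%) and was not called against day 3 (0.34), day 8 (0.42) or day 27 (0.05). That Ier3 call was lost without replicate B of LuRKO day 13, which stood apart (0.65, adjusted p = 0.0811), or without replicate B of LuRKO day 19 (0.64), wild-type day 13 (0.61) or wild-type day 19 (0.66).

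At day 27, Fosl2 was higher in LuRKO, 8.01 on 1 array against 7.40 and 7.64 (0.50 ± 0.19, adjusted p = 0.0271), at an age when 55.2% of all genes were called. Without wild-type day 27 replicate A it was 0.38 (adjusted p = 0.154), and with the mean of its kept probes 0.14 (adjusted p = 0.358). Of the other immediate early genes, 7 of 46 were higher and 3 lower in LuRKO at day 19, when 23.2% of all genes were called. Egr2, a relative of Egr1, was 0.79 higher (adjusted p = 0.00142) and Id2 0.68 higher (adjusted p = 0.00253), and Csrnp1 was 0.84 lower and Arc 0.72 lower, both called.

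Across all 20 groups the orders of the group means were close together. For Fosl2, 10 of 19 neighbouring groups in the order differed by less than its residual SD of 0.15, and for Junb 18 of 19. LuRKO at day 3 had the highest Fosl2 mean, 10.32, and wild type at day 27 the lowest, 7.52, and the 4 h mean of 9.79 stood between those of day 8 in LuRKO, 9.82, and day 8 in wild type, 9.74, at no more than the residual SD from either. Junb was the member least like the others: over the 20 group means its Pearson r was -0.40 with Jun and 0.13 with Fos, whereas Jund and Egr1 had 0.94. These groups share ages and the same normalization, so the values are descriptions.

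Over the 20 group means, the gene most like Egr1 was Jdp2 (Pearson r = 0.98), then Nedd4, Lpp, Sirpa and Fam171a1. For Jun they were Rasgef1c (0.98), Cd9, Rab3d, Kank2 and Epb41l1, and for Fos Slc27a4 (0.91), Glrx5, Phlda3, Dmrt3 and Twf2. For Atf3 they were Mdh2 (0.94), Ppp1ca, Inpp5f, Rab35 and Mycl, and for Ier2, which was mostly at background, Wnt2 (0.87), Col27a1, Tnfrsf13b, Vav3 and Nkx2-3. For Fosl2 they were Bicc1 (0.98), Ctdsp2, Mras, Rasl11a and Asah2, a gene added to the rule after its values were seen.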

How the data were processed

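The deposited table holds linear probe intensities that the authors read with BeadStudio, per the submitters' processing notes, from biotin-labelled cRNA, per the labels' protocols. Its array medians were nearly equal (108.1 to 108.3), as after quantile normalization, and the sources used here give no BeadStudio version. Intensities of the deposited table were background-corrected with normexp (offset 50) and put on the log2 scale. The offset shrinks differences of dim probes. A second deposited table of signals was not used, because its 76 columns match no label.

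Of 45281 probes, 31639 were above background (102.7, or 6.63 on the corrected log2 scale) on at least 2 arrays, and 25669 of these had 1 gene symbol. The brightest probe stood for its gene, giving 15118 genes. Between 23888 and 23924 probes were above background per array, and the number of arrays limits precision. Group means of all 38 arrays were estimated in a single limma 3.58.1 fit under R 4.3.3 (lmFit, eBayes). P-values were adjusted by Benjamini-Hochberg over all genes of a comparison, and a gene was called under 0.05. A fold against a group with no array above background is written as at least N-fold. The scripts were tested on simulated data.

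The 10 genes and all gene lists were chosen with earlier results of these data known. Other lists give up to 4 called genes with the largest differences at 2 to 24 h against untreated or in the comparison told. Likeness is the highest Pearson r over group means for Fos, Jun, Egr1, Ier2 and Atf3. Other background corrections, scalings, filters, probe choices, variance models, array sets and controls were tried. The genes of the luteinizing hormone and androgen receptors were not analysed here.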

Additional observations from a re-analysis of the deposited data

Results flagged for a closer look

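A test of the genotype difference between ages was added after the data were seen. It set day 19 against each other age and marked 5 results at an adjusted p under 0.05 (limma interaction over 15118 genes). The genes it marked, Junb, Jund and Ier3, had already been called between genotypes at day 19. These results are therefore not independent of those calls. The LuRKO minus wild-type difference of Junb was lower at day 19 than at day 3 by 1.30 log2 units (difference of differences -1.30) and lower than at day 27 by 1.07 (-1.07). That of Jund was higher at day 19 than at day 8 by 0.90 and than at day 27 by 0.80, the latter 0.39 without wild-type day 27 replicate A (adjusted p = 0.236). That of Ier3 was higher at day 19 than at day 13 by 0.74, and 0.65 without LuRKO day 13 replicate B (adjusted p = 0.0811). Junb was not called different from day 8 or 13, Jund from day 3 or 13, or Ier3 from day 3, 8 or 27. LuRKO at day 27 is 1 array, and LuRKO day 13 replicate B stood apart in marker genes.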

How the results depend on the processing

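Counts are of the 10 genes called at an adjusted p under 0.05 in limma. The single 24 h array and the single LuRKO day 27 array could not be left out. Leaving out each array in turn took the counts against untreated from 2 to between 1 and 2 at 2 h, 2 to 1 and 2 at 4 h, 3 to 1 and 2 at 8 h, 2 to 0 and 2 at 12 h, 3 to 1 and 2 at 24 h and 3 to 0 and 1 at 48 h. Against vehicle they went from 1 to between 0 and 2 at 2 h, 2 to 1 and 2 at 8 h, 1 to 0 at 12 h and 2 to 0 and 2 at 48 h, and stayed at 1 at 4 and 24 h. Vehicle against untreated gave 0 to 1, the genotypes 0 to 2 at day 3, 2 to 3 at day 19 and 0 to 2 at day 27, and day 27 against day 3 gave 8 in wild type and 7 to 8 in LuRKO.

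The counts that follow are those that moved by over 1.5 times under other settings. With offset 16 the counts were 1 at 2 and 48 h against untreated and 1 at 8 and 48 h against vehicle. With no filter they were 1 at 2 h against untreated and 1 at 48 h against vehicle. With the mean of a gene's probes they were 1 at 2 h against untreated, 0 at 2 and 12 h against vehicle and 0 between genotypes at day 27. With only rescue and untreated arrays in the fit they were 1 at 2 and 12 h against untreated, and 1 at 8 h and 2 at 24 h against vehicle, and with only age arrays 2 between genotypes at day 27. In place of untreated, vehicle gave 1 at 2, 4, 12 and 24 h, low dose gave 1 at 4, 8 and 24 h and 0 at 12 h, and untreated and vehicle together gave 1 at 4 and 12 h. The Junb difference at 48 h changed sign with vehicle as the control, from 0.51 to -0.00208. Without the 3 arrays that stood apart, chosen after seeing the data, the counts were 1 at 8 h and 0 at 12 h against vehicle, and 1 for vehicle against untreated. Vehicle replicate B with low dose, also chosen after seeing the data, gave 1 at 4 and 8 h and 0 at 12 h. The cause of these changes was not tested.

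In the median pair of groups, arrays of 1 letter did not deviate together (median r -0.000341 over 153 pairs). The values ran from -0.316 to 0.369, and 35 pairs were over 0.1. With the letter as a replicate block, the counts were 2 at 24 h and 1 at 48 h against vehicle, and Fosl2 at 4 h stood 1.24 above vehicle (adjusted p = 1.66e-05). A slide block was not run, because the columns used carry no slide. Ier2, Atf3 and Fosb lay near background on many arrays, which limits what their values can show. Leaving out arrays for the age steps, the differences between ages and the other lists was also chosen after seeing the data.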
